A study of Mus musculus with 4 samples.

Results

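Open chromatin was described around Tbx21, Ifng, Eomes and Hlx, genes of type 1 helper (Th1) T cells, in mouse CD4+ T cells that were being driven towards regulatory T cells with or without IL-4. The members were every region called as a peak in at least 1 of 4 ATAC-seq libraries and lying within the gene record of one of these genes or the 70 kb on either side, after peaks of the libraries that shared a base had been merged. The 4 windows held 82 of the 93679 merged regions of the whole series, with 31 at Tbx21, 25 at Ifng, 16 at Eomes and 10 at Hlx. ATAC-seq uses a transposase that cuts DNA where it is not packed into closed chromatin, so that a peak of cuts marks an open stretch. Spleens of male C57BL/6 mice aged 7 weeks were the source of the naive CD4+ T cells, which were sorted as CD44 low, CD62L high and without CD25. They were activated for 48 h with plate-bound anti-CD3 at 5 µg/ml and soluble anti-CD28 at 1 µg/ml, in TGF-β1 at 5 ng/ml and IL-2 at 10 ng/ml. The iTreg+PBS cells (2 libraries) received no further cytokine and the iTreg+IL-4 cells (2 libraries) received IL-4 at 15 ng/ml, with 50000 cells taken for a library. The study describes its samples as pooled and biologically independent. The labels do not name the animals or cultures behind each library, so a p-value here measures the spread between these libraries.

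The lists held 77064 and 56645 peaks for the iTreg+PBS libraries and 78670 and 67743 for the iTreg+IL-4 libraries, and the second iTreg+PBS library had the shortest list. The sequencing depth of each library is unknown, and pileup heights were not scaled for depth, so heights were not compared between libraries. Strength was given instead as a rank value, the percentage of a library's own peaks with a higher -log10 q than the region's best peak, so that a low value is a strong peak. With 2 libraries against 2, the smallest p that the exact two-sided permutation test can give is 0.33, and no comparison could pass 0.05. A peak lay at the start site of 59.3% of coding genes in all 4 libraries. T cell genes had such a peak in 10 of 10 cases and regulatory T cell genes in 4 of 4 cases, while of 20 markers of B cells, myeloid cells, NK and CD8 T cells, erythroid, epithelial and other cells 8 had one in all 4 libraries, 4 in some and 8 in none. Cd79a and Cd79b of B cells, Lyz2 and Csf1r of myeloid cells and Ncr1 of NK cells were among the markers with no start-site peak in any library. Pax5 of B cells and Epcam, Col1a1 and Pecam1 of other tissues had one in all 4 libraries and ranked higher with IL-4 in both, against 20.1% of the coding genes with such a peak. Cd14, Mpo, Cd8b1 and Gata1 had one in all 4 libraries with overlapping conditions, and the part of such cells in the results was not tested.

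T-bet, encoded by Tbx21, is the T-box factor that directs CD4+ T cells towards the Th1 type, and Eomes encodes its close relative eomesodermin, which acts mainly in CD8 T cells and NK cells. Ifng encodes interferon-γ, the main cytokine of Th1 cells, and the homeobox factor Hlx cooperates with T-bet in switching it on. Conserved noncoding elements spread over many kilobases on both sides of Ifng serve as enhancers and boundary sites, and T-box, RUNX, STAT and AP-1 factors act on them. IL-4 is the cytokine of the opposing Th2 type and signals through STAT6.

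The sequences printed here are from the 15 Ifng regions called in all 4 libraries, the ones whose strength could be compared in every library, with the strongest region of the Tbx21 window for comparison. Each is the middle 200 bases outside UTRs, as reference sequence of GRCm38 (mm10), plus strand, and the name gives the distance from the start site to the centre of the region. Capitals mark matches, on either strand, to the T-box half-site GGTGTGA, the RUNX site TGTGGT, the AP-1 site TGANTCA, or TTC and GAA with 3 or 4 bases between them, the spacing that STAT factors recognise and of which STAT6 takes the wider form. None of the matches printed overlapped a match to another motif.
Ifng 36.3 kb upstream, chr10:118404598-118404797: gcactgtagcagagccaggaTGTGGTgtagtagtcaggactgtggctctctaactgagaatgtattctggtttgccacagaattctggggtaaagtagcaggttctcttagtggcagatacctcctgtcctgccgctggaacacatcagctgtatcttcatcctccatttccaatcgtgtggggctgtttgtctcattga
Ifng 34.0 kb upstream, chr10:118406956-118407155: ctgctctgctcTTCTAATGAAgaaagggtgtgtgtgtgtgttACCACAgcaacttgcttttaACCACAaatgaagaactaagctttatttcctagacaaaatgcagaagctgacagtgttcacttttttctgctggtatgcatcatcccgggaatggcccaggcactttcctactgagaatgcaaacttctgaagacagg
Ifng 21.9 kb upstream, chr10:118419083-118419282: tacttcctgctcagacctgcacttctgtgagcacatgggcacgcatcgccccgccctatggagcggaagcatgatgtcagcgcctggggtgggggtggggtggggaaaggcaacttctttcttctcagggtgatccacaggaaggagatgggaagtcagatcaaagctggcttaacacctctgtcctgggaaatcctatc
Ifng 5.5 kb upstream, chr10:118435442-118435641: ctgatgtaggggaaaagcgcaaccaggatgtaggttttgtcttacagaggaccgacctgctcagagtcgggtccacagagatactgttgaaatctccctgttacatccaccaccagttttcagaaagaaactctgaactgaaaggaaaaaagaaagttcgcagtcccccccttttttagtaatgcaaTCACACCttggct
Ifng start-site region, chr10:118440715-118440914: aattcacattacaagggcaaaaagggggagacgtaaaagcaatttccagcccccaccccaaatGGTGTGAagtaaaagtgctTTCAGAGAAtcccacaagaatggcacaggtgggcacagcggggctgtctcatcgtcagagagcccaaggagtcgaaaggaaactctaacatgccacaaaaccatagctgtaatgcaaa
Ifng 1.1 kb downstream, chr10:118442046-118442245: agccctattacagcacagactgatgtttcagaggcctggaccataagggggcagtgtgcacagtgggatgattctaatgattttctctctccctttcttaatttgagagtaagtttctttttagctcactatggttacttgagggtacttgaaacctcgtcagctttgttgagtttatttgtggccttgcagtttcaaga
Ifng 17.8 kb downstream, chr10:118458779-118458978: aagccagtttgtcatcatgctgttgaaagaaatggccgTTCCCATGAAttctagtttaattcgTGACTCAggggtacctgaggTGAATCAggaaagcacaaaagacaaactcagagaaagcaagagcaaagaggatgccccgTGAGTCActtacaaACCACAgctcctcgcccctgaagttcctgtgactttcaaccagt
Ifng 19.9 kb downstream, chr10:118460829-118461028: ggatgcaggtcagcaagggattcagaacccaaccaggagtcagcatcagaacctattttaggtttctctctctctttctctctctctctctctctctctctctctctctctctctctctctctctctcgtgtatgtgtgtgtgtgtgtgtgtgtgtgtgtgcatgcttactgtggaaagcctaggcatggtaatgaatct
Ifng 28.1 kb downstream, chr10:118469047-118469246: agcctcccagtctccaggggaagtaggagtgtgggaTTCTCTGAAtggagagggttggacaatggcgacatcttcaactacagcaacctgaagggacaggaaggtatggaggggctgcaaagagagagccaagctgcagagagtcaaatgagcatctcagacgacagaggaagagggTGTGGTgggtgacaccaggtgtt
Ifng 29.6 kb downstream, chr10:118470593-118470792: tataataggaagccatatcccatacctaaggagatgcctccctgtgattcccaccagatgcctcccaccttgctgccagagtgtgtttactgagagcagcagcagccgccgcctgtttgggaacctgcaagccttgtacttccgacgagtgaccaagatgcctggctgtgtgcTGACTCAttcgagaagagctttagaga
Ifng 36.6 kb downstream, chr10:118477557-118477756: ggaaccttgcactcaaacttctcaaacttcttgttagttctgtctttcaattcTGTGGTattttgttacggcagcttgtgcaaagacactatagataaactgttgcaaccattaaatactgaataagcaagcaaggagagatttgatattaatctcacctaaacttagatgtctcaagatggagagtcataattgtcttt
Ifng 40.0 kb downstream, chr10:118480932-118481131: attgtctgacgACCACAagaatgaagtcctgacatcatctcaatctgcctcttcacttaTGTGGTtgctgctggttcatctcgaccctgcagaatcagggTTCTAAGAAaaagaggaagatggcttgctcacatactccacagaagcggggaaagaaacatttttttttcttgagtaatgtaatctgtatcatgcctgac
Ifng 45.8 kb downstream, chr10:118486766-118486965: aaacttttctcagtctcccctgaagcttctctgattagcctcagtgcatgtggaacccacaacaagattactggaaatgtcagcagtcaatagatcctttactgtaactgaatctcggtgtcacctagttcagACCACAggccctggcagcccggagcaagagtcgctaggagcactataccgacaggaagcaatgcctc
Ifng 54.4 kb downstream, chr10:118495368-118495567: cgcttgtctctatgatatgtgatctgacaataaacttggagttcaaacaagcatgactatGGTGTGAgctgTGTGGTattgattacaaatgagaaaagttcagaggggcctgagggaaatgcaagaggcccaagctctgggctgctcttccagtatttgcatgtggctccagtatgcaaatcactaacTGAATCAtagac
Ifng 66.1 kb downstream, chr10:118507017-118507216: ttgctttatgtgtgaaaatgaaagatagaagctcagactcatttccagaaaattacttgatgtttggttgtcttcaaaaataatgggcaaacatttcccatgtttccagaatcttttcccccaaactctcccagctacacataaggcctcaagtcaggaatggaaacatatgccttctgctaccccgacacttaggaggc
Tbx21 11.8 kb upstream, chr11:97127003-97127202: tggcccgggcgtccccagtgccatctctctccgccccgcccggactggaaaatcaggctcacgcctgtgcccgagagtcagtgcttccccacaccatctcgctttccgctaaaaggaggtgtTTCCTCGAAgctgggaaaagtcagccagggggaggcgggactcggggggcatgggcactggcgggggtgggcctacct

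The start-site stretch of Ifng, which lies before the transcribed part, held 1 T-box half-site and 1 match with 3 bases between TTC and GAA. Further half-sites stood 5.5 kb upstream and 54.4 kb downstream. The stretch 17.8 kb downstream held 3 AP-1 sites, 1 RUNX site and 1 match with the 4-base spacing, the most matches of any Ifng stretch printed, and the one 34.0 kb upstream held 2 RUNX sites and 1 match with the 4-base spacing. No listed motif was found in the stretches 21.9 kb upstream and 1.1, 19.9 and 66.1 kb downstream, which says only that these letters are not in these windows.

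Over the central 300 bases of each region, 13 of the 25 Ifng regions held a RUNX site, against 9 of 31 at Tbx21, 2 of 16 at Eomes and 1 of 10 at Hlx, and 28.6% of 93490 regions genome-wide. AP-1 sites were found in 9 Ifng regions and 7 Tbx21 regions, 2 at Eomes and 2 at Hlx, and in 16.8% of all regions. Among the 15 Ifng regions called in all 4 libraries, 3 held an AP-1 site. T-box half-sites stood in 5 Eomes and 2 Ifng regions, in no Tbx21 or Hlx region, and in 5.47% of all regions. The half-site printed for the Ifng start site is not in that count, since the printed stretch was moved off the UTR and lies partly outside the central 300 bases. The 3-base STAT spacing was present in 13.4% of the 82 regions against 11.7% of all, and the 4-base spacing in 6.1% against 8.36%. Median GC content was 45.0% at Ifng, 54.0% at Tbx21, 50.8% at Eomes and 49.7% at Hlx, with 49.3% over all regions. A match is a run of letters, and binding of a factor was not measured.

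Each of the 4 genes had a peak at its own start site in every library, with or without IL-4. Regions called in both IL-4 libraries and neither PBS library numbered 2, near Eomes and Hlx, against 2.6% of all regions. None was called the other way round, against 0.699%. Both counts were near those shares of the 82 regions. Of the 82 regions, 46 (56.1%) were called in all 4 libraries, against 51% of all regions. The regions called in all 4 libraries came to 19 at Tbx21, 15 at Ifng, 7 at Eomes and 5 at Hlx. Per 100 kb of window there were 12.1 such regions at Tbx21, 10.4 at Ifng, 4.73 at Eomes and 3.44 at Hlx, where the median of 21938 coding genes with windows of the same flanks was 3.44. Windows with at least as many belonged to 1.75% of coding genes for Tbx21, 4.86% for Ifng, 37.0% for Eomes and 50.0% for Hlx. The Tbx21 window also holds the start sites of the neighbours Scrn2, Mrpl10, Osbpl7 and Tbkbp1, whereas 21 of the 25 Ifng regions overlapped no annotated gene record.

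The Ifng record spans chr10:118441046-118445892 on the plus strand, and 8 of its 25 regions were centred upstream of the start site and 17 downstream. Upstream, the strongest region of the locus lay 21.9 kb from the start site (chr10:118418814-118419551), between genes, with rank values of 9.85% and 14.4% in the PBS libraries and 10.5% and 11.2% in the IL-4 libraries. Its -log10 q was 255 and 97.5 with PBS and 217 and 185 with IL-4, at pileup heights of 286, 120, 255 and 210 reads. The conditions overlapped there, and the mean rank value differed by 1.32 percentage points, less than the SD of 3.22 between the PBS libraries (exact permutation p = 1, n = 2 against 2).

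The other intergenic regions on that side were weaker or less regular. At 34.0 kb upstream (chr10:118406742-118407369) the rank values were 14.3% and 28.1% in the PBS libraries and 23.7% and 29.4% in the IL-4 libraries, so that the first PBS library stood apart from the other three. Its neighbour 36.3 kb upstream (chr10:118404523-118404873), a shorter region of 351 bases, gave 51.7% and 67.3% with PBS and 29.1% and 43.9% with IL-4. Both IL-4 libraries thus ranked it above both PBS libraries, with means of 36.5% ± 10.5 against 59.5% ± 11.02 (SD, n = 2 each), a gap of 23.0 percentage points and the smallest exact permutation p that 2 against 2 libraries allow, 0.33. That order held for 19.7% of the regions called in all 4 libraries genome-wide, and whether the gap reflects a change in opening was not tested. In pooled cells, opening in more of the cells and wider opening in each of them could not be told apart in any case. The region 5.5 kb upstream (chr10:118435195-118435889), the one nearest to the promoter, had values of 18.2% and 32.6% with PBS and 22.9% and 40.8% with IL-4, and the conditions overlapped. Farther out, the region at 66.7 kb (chr10:118374172-118374516) was called in 3 libraries, at 46.9% in the first PBS library and at 42.9% and 93.6% with IL-4, and the region at 28.0 kb (chr10:118412878-118413132) in the same 3 libraries, at 55.9%, 71.5% and 62.4%. Only the first library of each condition called the region at 54.4 kb (chr10:118386301-118387032), at 54.1% with PBS and 67.7% with IL-4. No upstream region was called in 1 condition only.

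The start-site region (chr10:118440585-118441402) covered 818 bases of promoter, 5' UTR and coding exon. Its rank values were 17.3% and 25.1% in the PBS libraries and 17.3% and 24.2% in the IL-4 libraries, and the means of 21.2% ± 5.53 and 20.7% ± 4.86 (SD, n = 2 each) were 0.467 percentage points apart (exact permutation p = 1). With or without IL-4 it ranked below the typical start-site peak, since the median over the 12987 coding genes that had one in all libraries was 9.64% and 11.9% with PBS and 9.71% and 10.1% with IL-4. Inside the gene, 1.1 kb past the start site (chr10:118442001-118442291), an intronic region of Ifng that also overlaps an exon of the annotated transcript Gm49751 gave 48.4% and 48.9% with PBS and 53.8% and 75.2% with IL-4. Both IL-4 libraries ranked it below both PBS libraries, by 15.9 percentage points on average (exact permutation p = 0.333), and the second IL-4 library made most of that gap. A further intronic region at 2.1 kb (chr10:118443023-118443261) was called in 3 libraries, at 50.9% in the first PBS library and at 54.5% and 71.4% with IL-4, and not in the second PBS library.

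Just past the end of the gene, 4 weak intergenic regions were each called in 1 to 3 libraries. The region at 5.4 kb (chr10:118446167-118446664) was called in the first PBS and the second IL-4 library, the one at 6.7 kb (chr10:118447668-118447901) in the first PBS library alone, the one at 7.9 kb (chr10:118448868-118449123) in every library but the second PBS library, and the one at 10.9 kb (chr10:118451733-118452072) in the first library of each condition. Their rank values lay between 70.5% and 93.4%, in the lower part of the lists.

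A group of regions called in every library began 17.8 kb downstream (chr10:118458557-118459201). The values there were 25.8% and 60.7% in the PBS libraries and 23.5% and 44.5% in the IL-4 libraries. The libraries of 1 condition differed more than the conditions. The adjoining region at 19.9 kb (chr10:118460035-118461822) was 1788 bases wide, the second widest of the 82, and stood at 22.9% and 24.5% with PBS and 27.7% and 25.9% with IL-4. That order, lower with IL-4 in both libraries, rested on a mean gap of 3.18 percentage points and was absent when regions called in all 4 libraries were ranked among themselves. At 28.1 kb (chr10:118468764-118469529) the first PBS library gave 13.6% and the remaining 3 libraries 27.5%, 26.3% and 26.5%. The region at 29.6 kb (chr10:118470374-118471011) had values of 23.7% and 55.1% with PBS and 21.7% and 49.5% with IL-4, again with the spread inside each condition and not between them.

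At 36.6 kb downstream (chr10:118477430-118477883) the rank values were 55.3% and 85.6% in the PBS libraries and 37.7% and 50.4% in the IL-4 libraries. Both IL-4 libraries ranked this region above both PBS libraries, with means of 44.1% ± 8.99 against 70.4% ± 21.4 (SD, n = 2 each), a gap of 26.3 percentage points that was the widest of the 46 regions called in all libraries (exact permutation p = 0.333). The second strongest region of the locus by mean rank value followed at 40.0 kb (chr10:118480659-118481405), with 11.4% and 23.3% with PBS and 11.8% and 24.7% with IL-4 and means 0.849 percentage points apart. The regions at 45.8 kb (chr10:118486612-118487119), 54.4 kb (chr10:118495203-118495733) and 66.1 kb (chr10:118506179-118508055) were also called in all libraries. The conditions overlapped in each. The first stood at 17.4% and 32.1% with PBS and 21.8% and 25.9% with IL-4. The second stood at 25.5% and 46.5% with PBS and 29.0% and 56.5% with IL-4. The third stood at 37.8% and 55.8% with PBS and 41.5% and 43.5% with IL-4, lies in an intron of Ifngas1, a long noncoding RNA gene that neighbours Ifng, and was at 1877 bases the widest of the 82 regions. The region at 47.0 kb (chr10:118487762-118488255) was called in the first library of each condition, at 50.8% with PBS and 73.1% with IL-4, and the one at 53.4 kb (chr10:118494276-118494635) in both PBS libraries and the first IL-4 library, at 50.4%, 99.8% and 79.3%.

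**Figure D1:**
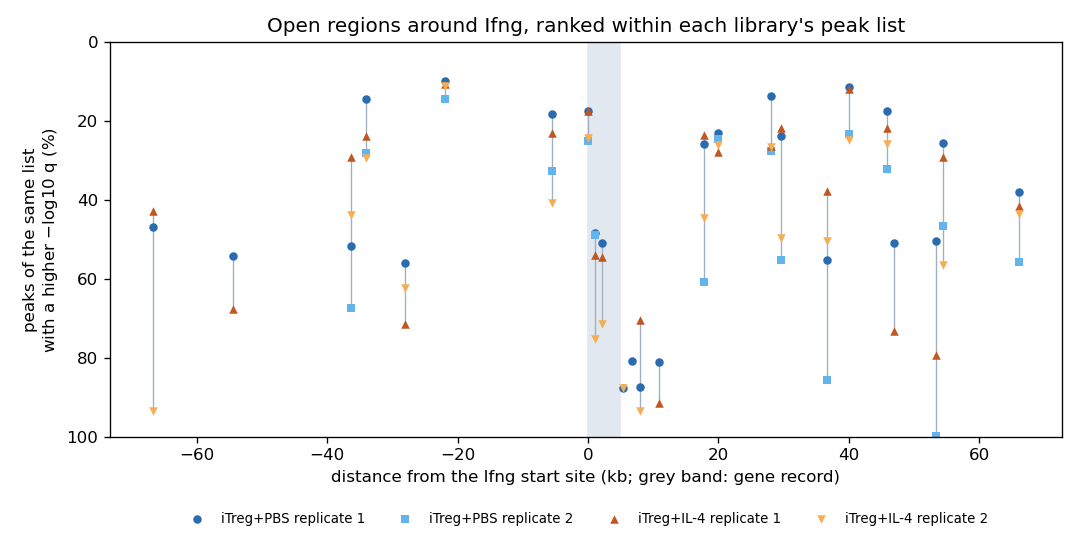
Each point is 1 region in 1 library, placed by its distance from the Ifng start site in kb and by its rank value, the percentage of the library's peaks with a higher -log10 q (strong at the top), and grey lines join the libraries of a region. The region 21.9 kb upstream lies between 9.85% and 14.4% in all 4 libraries, while those 36.3 kb upstream and 36.6 kb downstream have both IL-4 points above both PBS points.

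Of the 15 Ifng regions called in all libraries, 2 ranked higher with IL-4 in both libraries, against 19.7% of such regions genome-wide, 2 ranked lower, against 5.18%, and 11 overlapped. With ranks taken only among the regions called in all 4 libraries, which gives every library the same number of regions, 2 were higher (those 36.3 kb upstream and 36.6 kb downstream again), against 14.3% genome-wide, and 3 were lower, at 34.0 kb upstream and 1.1 and 28.1 kb downstream, against 12.7%. The regions that ranked higher were 351 and 454 bases wide. A RUNX site stood in both, as it did in 9 of the 15 Ifng regions called in all libraries, those 34.0 kb upstream and 28.1 kb downstream included.

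At Tbx21 (chr11:97098071-97115331, minus strand), the gene of T-bet, 31 regions were found, 15 centred upstream of the start site and 16 downstream. The strongest region of all 4 windows was intergenic, 11.8 kb upstream (chr11:97126642-97127563, 922 bases), with rank values of 3.51% and 6.15% in the PBS libraries and 4.45% and 6.67% in the IL-4 libraries. Its -log10 q was 484 and 198 with PBS and 376 and 280 with IL-4. The means of 4.83% ± 1.86 and 5.56% ± 1.57 (SD, n = 2 each) differed by less than the spread between libraries (exact permutation p = 0.667). Ranked among regions called in all libraries it counted as lower with IL-4, on values of 5.66% and 7.28% against 7.32% and 9.46%.

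The Tbx21 start-site region (chr11:97114949-97115644), which spans the promoter, 5' UTR and a coding exon, was weaker at 40.4% and 41.4% in the PBS libraries and 35.5% and 34.3% in the IL-4 libraries. Both IL-4 libraries ranked it above both PBS libraries, 34.9% ± 0.888 against 40.9% ± 0.667 (SD, n = 2 each), a gap of 5.97 percentage points (exact permutation p = 0.333), but the order was lost when regions called in all libraries were ranked among themselves. A second, 182-base region 0.65 kb upstream was called in the second PBS library only. Within the gene the intronic region at 2.5 kb (chr11:97112515-97113162) was the strongest, with 10.5% and 21% with PBS and 11.1% and 19.9% with IL-4. The intronic region at 11 kb gave 24.3% and 70.1% with PBS and 28.0% and 48.5% with IL-4, a spread within each condition that exceeded the gap between them. The region at 13.3 kb, over a coding exon, gave 41.2% and 39.7% with PBS and 42.2% and 32.6% with IL-4. Those at 5.4 and 11.6 kb were called in 2 and 3 libraries.

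Among the regions outside the gene, the next strongest lay 73.8 kb downstream over the start sites of Lrrc46 and Mrpl10, a mitochondrial ribosomal protein gene, at 11.4% and 8.92% with PBS and 10.7% and 9.57% with IL-4. Another lay 25.6 kb upstream in an intron of Tbkbp1, which encodes a partner of the kinase TBK1, at 9.51% and 16.1% with PBS and 8.85% and 11.3% with IL-4. Neither pair of conditions was separated. The other 21 Tbx21 regions comprised 12 called in all libraries, with rank values from 15.9% to 93.5%, and 9 called in some. In all, 4 of the 19 regions called in every library ranked higher with IL-4 in both libraries, against 19.7% of such regions genome-wide, and none ranked lower, against 5.18%. None of the 4 kept that order when regions called in all libraries were ranked among themselves, where 2 others, 44.0 and 46.7 kb upstream, ranked higher, against 14.3% genome-wide, and 1 ranked lower, against 12.7%.

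Eomes (chr9:118478212-118486132, plus strand) had 16 regions. Its start-site region (chr9:118478501-118479564), 1064 bases wide and lying past the start site over 5' UTR and coding exon, gave 40.6% and 41.4% in the PBS libraries and 32.0% and 43.8% in the IL-4 libraries, with overlapping conditions (means 41.0% ± 0.572 and 37.9% ± 8.33, SD, n = 2 each, exact permutation p = 1). No other region lay inside the gene. The strongest region of the window, 28.3 kb downstream, lay over the start site of the neighbour Golga4, a golgin of the Golgi, at 21% and 21.7% with PBS and 19.9% and 19.7% with IL-4. The next, 11.4 kb downstream at the start of the antisense gene Gm33460 (chr9:118489137-118490123), gave 26.1% and 32.0% with PBS and 22.1% and 23.1% with IL-4. The region 26.9 kb upstream (chr9:118450955-118451704) was weaker at 68.5% and 78.0% with PBS and 54.4% and 53.9% with IL-4. All 3 ranked higher with IL-4 in both libraries, by 1.51, 6.46 and 19.1 percentage points (exact permutation p = 0.333 each), 3 of the 7 Eomes regions called in all libraries, against 19.7% of such regions genome-wide. When those regions were ranked among themselves the last 2 did so, against 14.3%.

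One Eomes region was called in both IL-4 libraries and neither PBS library. It lay 21.5 kb upstream, between genes (chr9:118456402-118457006), and was among the weakest peaks of both IL-4 lists, at rank values of 87.5% and 91.2%, -log10 q of 4.93 and 4.10 and heights of 18 and 14 reads. The remaining 11 Eomes regions were 3 called in all libraries, from 44.5% to 93.1%, and 8 called in some. The 5 regions of the Eomes window with a T-box half-site were centred 61.6, 57.1 and 1.6 kb upstream and 11.4 and 34.7 kb downstream. Those 61.6 and 57.1 kb upstream and 34.7 kb downstream were not called in every library.

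Hlx (chr1:184727140-184732619, minus strand) had the fewest regions, 10. Its start-site region (chr1:184731801-184733152, 1352 bases) covered promoter, 5' UTR and coding sequence at 22.8% and 26.7% in the PBS libraries and 22.2% and 30.8% in the IL-4 libraries, and the means of 24.8% ± 2.74 and 26.5% ± 6.1 (SD, n = 2 each) overlapped (exact permutation p = 1). The strongest region, 60.9 kb upstream in an intron of Marc1, stood at 20.2% and 23.7% with PBS and 19.2% and 22.1% with IL-4. The region 18.9 kb upstream, between genes, gave 33.1% and 56.7% with PBS and 25.9% and 40.4% with IL-4. The one 5.5 kb upstream, in the long noncoding RNA gene Gm34342, gave 34.8% and 53.2% with PBS and 44.0% and 41.9% with IL-4. None of the 5 Hlx regions called in every library separated the conditions, against 19.7% of such regions genome-wide ranked higher with IL-4 and 5.18% lower.

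The other region called in both IL-4 libraries and neither PBS library lay 8.9 kb upstream of Hlx, between genes (chr1:184741406-184741660, 255 bases), at rank values of 66.6% and 61.2%, -log10 q of 12.4 and 14.9 and heights of 30 and 31 reads. It was thus a mid to low peak of both lists. The 5 further Hlx regions were 1 called in all libraries and 4 called in some.

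**Figure D2:**
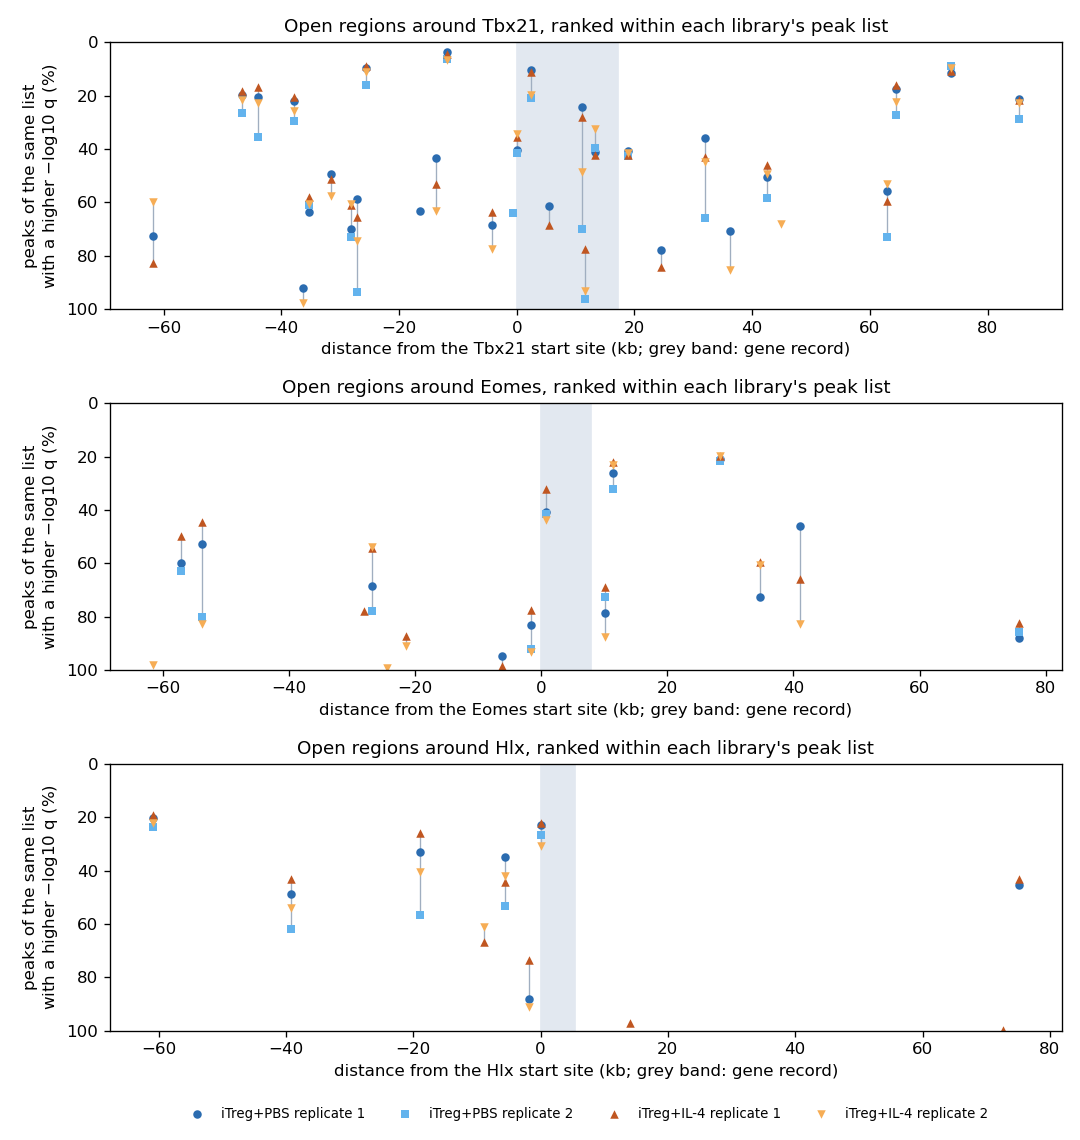
The same plot for Tbx21, Eomes and Hlx, with the distance from each start site in kb on the horizontal axis and the rank value in percent on the vertical axis, strong at the top, 1 point a region and library. The Tbx21 region 11.8 kb upstream is the highest point set, between 3.51% and 6.67%, and the regions 21.5 kb upstream of Eomes and 8.9 kb upstream of Hlx have a point from both IL-4 libraries and none from PBS.

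Whether IL-4 changed which regions were called was asked over the 82 regions together. In both IL-4 libraries and neither PBS library, 2 regions were called, against 2.6% of all regions, and in both PBS libraries and neither IL-4 library none, against 0.699% of all. Another 34 of the 82 were called in some libraries in neither of these patterns, against 45.7% of all regions. Of the 82, 11 were missing only from the second PBS library, which had the shortest list, against 9.97% of all, and 9 were called in 1 library, against 21.6%. The counts by condition depended on single libraries. With a library left out, called only with IL-4 means in every IL-4 library kept and in no PBS library kept, and the reverse for only without. Without the first PBS library 13 regions were called only with IL-4, against 13.6% of all regions with the same library left out, and without the second PBS library 3, against 3.41%. Without the first IL-4 library there were 5, against 7.25%, and without the second 6, against 11.1%. Regions called only without IL-4 numbered 1 without the first PBS library, against 3.25% of all, and 2 without the second, against 8.21%. They numbered 3 without the first IL-4 library, against 3.2%, and 0 without the second, against 1.5%. The windows then held from 79 to 82 regions. The part of list length in the calls was not tested beyond lists cut to equal length, where 43 regions were called in all libraries, 2 only with IL-4 and 1 only without.

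Whether IL-4 shifted the strength of shared regions was asked over the 46 regions called in every library. In 9 of them (19.6%) both IL-4 libraries ranked the region higher than both PBS libraries, against 19.7% of the 47767 such regions genome-wide, and in 2 (4.35%) lower, against 5.18%. The remaining 35 overlapped. With ranks taken among the shared regions only, 6 (13.0%) were higher, against 14.3% genome-wide, and 4 (8.7%) lower, against 12.7%. Genome-wide, the median rank value over these 47767 regions was 31.3% and 42.5% with PBS and 30.7% and 35.5% with IL-4. It was highest in the second PBS library, which had the shortest list. Over the 46 regions it was 25.7% and 41.4% with PBS and 27.0% and 40.6% with IL-4, again highest in that library. The means of 33.5% ± 11.1 and 33.8% ± 9.59 (SD, n = 2 each) were 0.28 percentage points apart (exact permutation p = 1), and the sign turned when a library was left out, to -7.78 without the first PBS library and -6.35 without the second IL-4 library, or grew to 1.87 and 7.06 without the second PBS and the first IL-4 library.

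**Figure D3:**
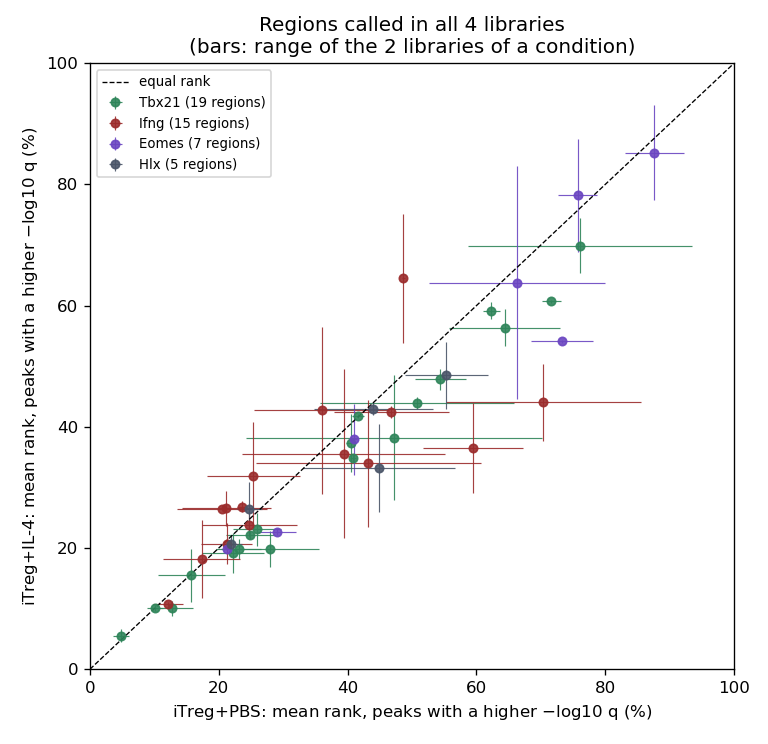
Mean rank value in percent of the 46 regions called in all 4 libraries, iTreg+PBS on the horizontal and iTreg+IL-4 on the vertical axis, coloured by gene, with bars for the range of the 2 libraries of a condition and a dashed line at equal rank. For 35 regions the rank values of the conditions overlap, and the Ifng regions 36.3 kb upstream and 36.6 kb downstream lie farthest below the line.

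The bases inside peaks gave the extent of open chromatin per window. At Tbx21 they came to 13810 and 9738 with PBS and 13633 and 12497 with IL-4, and at Ifng to 14096 and 8317 with PBS and 12393 and 9539 with IL-4. Eomes had 7163 and 4187 with PBS and 7567 and 5800 with IL-4, and Hlx 3753 and 2760 with PBS and 4280 and 3588 with IL-4. In each window the second PBS library had the fewest bases, in parallel with its list, which covered 29.3 Mb against 36.0 to 42.1 Mb in the others. The IL-4 mean minus the PBS mean was 1291 bases at Tbx21, -240.5 at Ifng, 1008.5 at Eomes and 677.5 at Hlx (exact permutation p = 1, 1, 0.667 and 0.667, n = 2 against 2). The pooled SD was 2114, 3223, 1731 and 605 bases, larger than the difference except at Hlx. Without the second PBS library the differences were -745 at Tbx21, -3130 at Ifng, -479.5 at Eomes and 181 at Hlx, and without the first PBS library 3327, 2649, 2496.5 and 1174. Without the first IL-4 library they were 723, -1667.5, 125 and 331.5, and without the second IL-4 library 1859, 1186.5, 1892 and 1023.5, so that 1 library decided the sign at Tbx21, Ifng and Eomes and the size at all 4 genes.

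**Figure D4:**
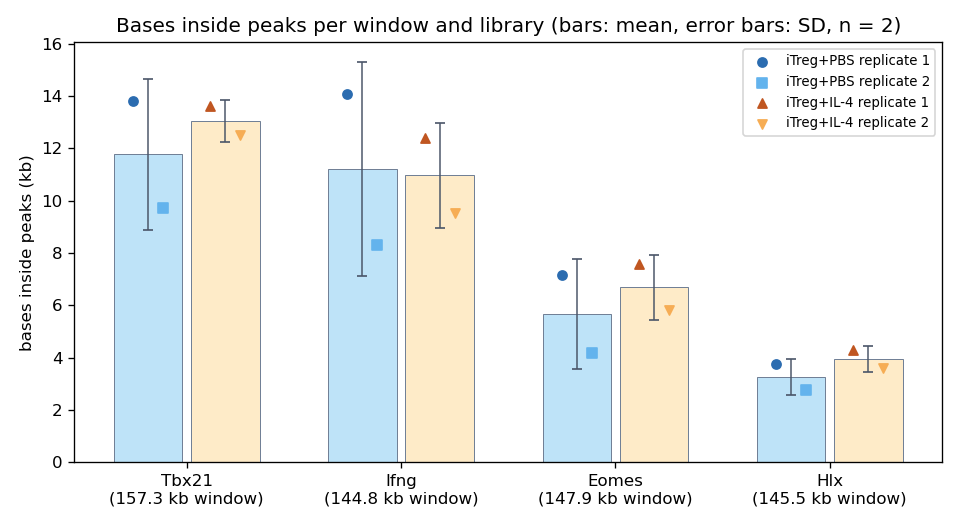
Bases inside peaks, in kb, in the window of each gene, with bars for the mean of the 2 libraries of a condition, error bars for the SD and points for the libraries. The second iTreg+PBS library is the lowest point at every gene, and the conditions overlap at each.

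Other genes of the Th1 programme were read at their start sites only. Of 22, 21 had a start-site peak in every library, against 59.3% of coding genes. Among cytokine receptors, Ifngr1, a receptor chain for interferon-γ, was the strongest at 2.05% and 2.37% with PBS and 2.68% and 2.89% with IL-4, and it was the 1 gene of the list ranked lower with IL-4 in both libraries, against 5.65% of the coding genes with such a peak. The IL-12 receptor genes Il12rb1 and Il12rb2 ranged from 18.3% to 38.0% and the IL-18 receptor genes Il18r1 and Il18rap from 12.3% to 27.8%, with overlapping conditions. A pair of genes ranked higher with IL-4 in both libraries, 2 of 21 against 20.1% of coding genes with a start-site peak. One of them was Il27ra, the receptor for IL-27, at 14.5% and 15.8% with PBS and 13.4% and 14.0% with IL-4.

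Stat4, which transmits the IL-12 signal, was weaker at 40.5% and 50.9% with PBS and 35.1% and 46.8% with IL-4. Of the transcription factors, Runx3, the RUNX factor that works with T-bet at Ifng, gave 1.82% and 5.98% with PBS and 1.63% and 4.59% with IL-4, and Ets1 2.40% and 4.12% with PBS and 3.17% and 3.94% with IL-4. Both stood near the top of every list. Twist1, a repressor induced in repeatedly activated Th1 cells, had a start-site peak in the first PBS library alone, at 88.1%. Among genes that mark Th1 effector cells, the chemokine receptor gene Cxcr3 was the weakest at 57.3% and 84.1% with PBS and 53.2% and 72.7% with IL-4, while Cxcr6, Havcr2 and Fasl ranged from 10.1% to 51.5%. The median start-site rank value over the 21 genes was 14.0% and 19.4% with PBS and 13.6% and 17.9% with IL-4.

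The start sites of the members themselves fell in the order Ifng, Hlx, Tbx21 and Eomes by mean PBS rank value, 21.2%, 24.8%, 40.9% and 41.0%. Ifng and Hlx overlapped in their PBS libraries, as did Tbx21 and Eomes, while the first pair lay above the second without overlap. The coding genes whose start-site rank values were nearest over the 4 libraries, among 12986 others, were Maip1 and Tyw5, which had the same values and hence the same peak, and Wwc2 for Ifng, at distances of 0.89, 0.89 and 0.966 percentage points. For Tbx21 they were Pbk, Lgi4 and Ccbe1 (2.68 to 3.27), for Eomes Arxes2, Npdc1 and Plekho1 (2.13 to 5.15), and for Hlx Pex11g, Zdhhc19 and Nt5e (1.05 to 2.81).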

How the data were processed

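Peak lists of 4 libraries were used, from ATAC-seq of 2 iTreg+PBS and 2 iTreg+IL-4 samples. The submitters' processing notes name Bowtie2 2.2.5, MACS2 2.1.2 and bedtools 2.16.2, and reads were placed on mm10 (GRCm38). The authors deposited for each peak its position, a -log10 q-value and a pileup height, a signal in whole reads that was not scaled for depth; the files name no columns, and the units were read from the values, whose lowest -log10 q lies just above that of a q-value of 0.05. Peaks were called per library. Handling of duplicates and of the transposase offset is not given in the sources used here.

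Start positions, counted from 0 in the lists, were converted to count from 1. Peaks sharing at least 1 base were merged across libraries. A region counted as called where a library's peak lay in it, and belonged to a window where it overlapped the GENCODE M21 gene record or the 70 kb on either side. A start site took in 1 kb upstream to 0.5 kb downstream. Rank values, bases inside peaks and exact two-sided permutation tests over libraries were computed in Python 3.11.15 (pandas 2.3.3, scipy 1.17.1, pysam 0.24.0). Motifs were searched on both strands in the 300 bases around each region's centre. The steps were tested on simulated lists. Every Ifng region was named; at the other genes, regions at the start site, inside the gene, called in both libraries of 1 condition and neither of the other, and the 3 others best ranked in their weakest library. The Th1 and marker lists came from general knowledge. The members and lists were chosen with earlier results of these data known. Alternatives were the upper 50% of each list, equal lists, each library left out, a replicate block, other flanks, 50% coverage, and other ranks. No library was left out of the main values. Values of some genes of these lists are not reported here.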

Additional observations from a re-analysis of the deposited data

How the results depend on the processing

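Of 71 alternative values, 49 kept the direction of the main value or stayed within 1.5 times the main count, 12 counts moved by over 1.5 times and 10 differences changed sign. The 49 include every value under the replicate block, which equals the main value by construction. The 46 regions called in all 4 libraries fell to 25 with the upper 50% of each list and 20 with 20 kb on each side, and ranged from 46 to 57 with 1 library left out. The 2 regions called only with IL-4 (in both IL-4 libraries and neither PBS library) became 1 with 20 kb and 5 with 100 kb on each side, and ranged from 3 to 13 with 1 library left out. The count of 0 called only without IL-4 became 1 with the upper 50% of each list and 1 with equal lists, and ranged from 0 to 3 with 1 library left out. The median rank difference of 0.28 percentage points changed sign to -2.07 with the upper 50%, -1.28 with 20 kb, -1.99 with 100 kb and -1.45 with rank by height, kept its sign at 2.09 with equal lists and 5.58 with rank among regions called in all 4 libraries, and ranged from -7.78 to 7.06 with 1 library left out. Bases inside peaks ranged with 1 library left out from -745 to 3327 at Tbx21, -3130 to 2649 at Ifng, -479.5 to 2496.5 at Eomes and 181 to 1174 at Hlx. The cause of these moves was not tested. A cut list holds fewer peaks by construction, and other flanks were not run for the bases inside peaks. With 1 library left in a condition these are values with no test. The 4 start-site peaks were also found with 0.5 kb on either side and with the upper 50% of each list, the only alternatives run for them.

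With the replicate number as a replicate block, the differences were unchanged by construction at 0.28 percentage points, 1291, -240.5, 1008.5 and 677.5 bases, and the paired exact permutation p was 1, 1, 1, 0.5 and 0.5, where 0.5 is the smallest it can give. The labels say nothing of shared cultures or days, and with 2 pairs the numbers are only a name. The deviations of same-numbered libraries from their condition means correlated across the 46 regions (Pearson r = 0.49) and across 47767 regions (r = 0.45), which are not independent replicates. In both conditions the first library had the longer list, and the part of list length in this correlation was not tested. Depth is unknown, so a region missing from a list, above all the shortest, may lie below its calling limit.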
